A study of Mus musculus with 4 samples.

Results

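The lysosomal enzymes and the proton pump that acidifies the lysosome were examined in myeloid-derived suppressor cells (MDSCs), a mixed population of immature neutrophils and monocytes that expands in hosts with tumors, after treatment with epigallocatechin gallate (EGCG), a catechin abundant in green tea. The set holds 40 genes, listed by the function of their proteins, though with earlier results of these data known: 7 cathepsins, 11 other hydrolases and their activators, 9 membrane proteins, lipid carriers and regulators, and 13 genes of the vacuolar ATPase (V-ATPase), out of 53465 genes in the count table. MDSCs were taken from the spleens of male BALB/c mice, 6 weeks old at injection, that carried the mammary carcinoma 4T1, on day 21 after injection of the tumor cells per the labels (the methods place the sorting earlier), with magnetic beads against Gr-1, an epitope of both Ly-6G and Ly-6C. The sorted cells were cultured for 6 h in control medium (2 libraries) or in medium with 5 μg/mL EGCG (2 libraries), so that cells of both groups came from tumor-bearing mice, went through the sort and were held in culture. Nothing in the labels says that replicate libraries were from separate mice or cultures, so p values measure only the spread between these samples, which may be technical. These are bulk samples, in which fewer cells of a type and less RNA per cell cannot be told apart.

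Lysosomes break down proteins, lipids, glycans and glycogen delivered by endocytosis, phagocytosis and autophagy, and most of their hydrolases work only at acid pH. The V-ATPase sets that pH: its V1 sector in the cytosol hydrolyzes ATP, and its V0 sector in the membrane carries the protons inward. Many genes of both kinds are targets of the transcription factor TFEB, which binds a palindromic E-box in their promoters, and in cells of the neutrophil and monocyte lineages the same proteases also serve in the killing of microbes and the processing of antigens.

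Between 17767318 and 18390385 reads were counted on genes per library. Markers of neutrophils and monocytes were present, where CPM give read counts relative to the TMM-adjusted total of a library. S100a8, listed for neutrophils, was at 14500 and 18200 CPM in the control libraries and at 22800 and 19500 CPM in the EGCG libraries. Of the genes behind Gr-1, Ly6g was at 943 and 1090 against 1200 and 965 CPM. Ly6c2, listed for monocytes, was at 120 and 147 against 158 and 132 CPM. Of 53465 genes, 14682 passed the filter on low counts, and all 40 lysosomal genes were among them. The groups were compared in edgeR (quasi-likelihood test, p adjusted by Benjamini-Hochberg over the tested genes), and a gene was called at an adjusted p under 0.05. With 2 libraries against 2, an exact permutation test cannot give a two-sided p below 0.333, so no gene was tested in that way.

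None of the 40 genes was called: 0 had an adjusted p under 0.05, against 0.15% of all tested genes, and the adjusted p ran from 0.149 to 0.972. Log2 fold changes lay between -0.20 for Mcoln1 and 0.30 for Atp6v0e, with standard errors from 0.07 to 0.13. At an unadjusted p under 0.05, 5 genes were higher with EGCG, namely Ctsd, Hexa, Atp6v0b, Atp6v0d1 and Atp6v0e, which is 12.5% of the members where 5.22% of all tested genes were higher. In the other direction 0 members passed the unadjusted threshold, where 7.02% of all tested genes did. This split depended on the scaling: with library size only, 3 members were higher (Ctsd, Atp6v0b and Atp6v0e) and 2 lower (Tpp1 and Mcoln1) at an unadjusted p under 0.05, where 472 of all tested genes were higher and 1406 lower, against 767 and 1030 with TMM scaling. The 5 genes differed by 12.2% to 22.9% between the groups, and 3 of them encode subunits of the V0 sector.

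Direction was mixed across the set. With EGCG, 25 members had a log2 fold change above 0 and 15 below 0, that is 62.5% above 0 against 50.6% of all tested genes. Both EGCG libraries lay above both control libraries for 14 members (35.0%, against 21.5% of all tested genes) and below them for 1, Tpp1 (against 21.2% of all tested genes), and the groups overlapped for the other 25. The median log2 fold change was 0.04 over the members and 0.0031 over all tested genes. It was 0.02 when control replicate 1 was omitted, 0.07 when control replicate 2 was, 0.08 without EGCG replicate 1 and -0.0007 without EGCG replicate 2, so the small excess of higher members varied with the libraries that were kept.

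**Figure D1:**
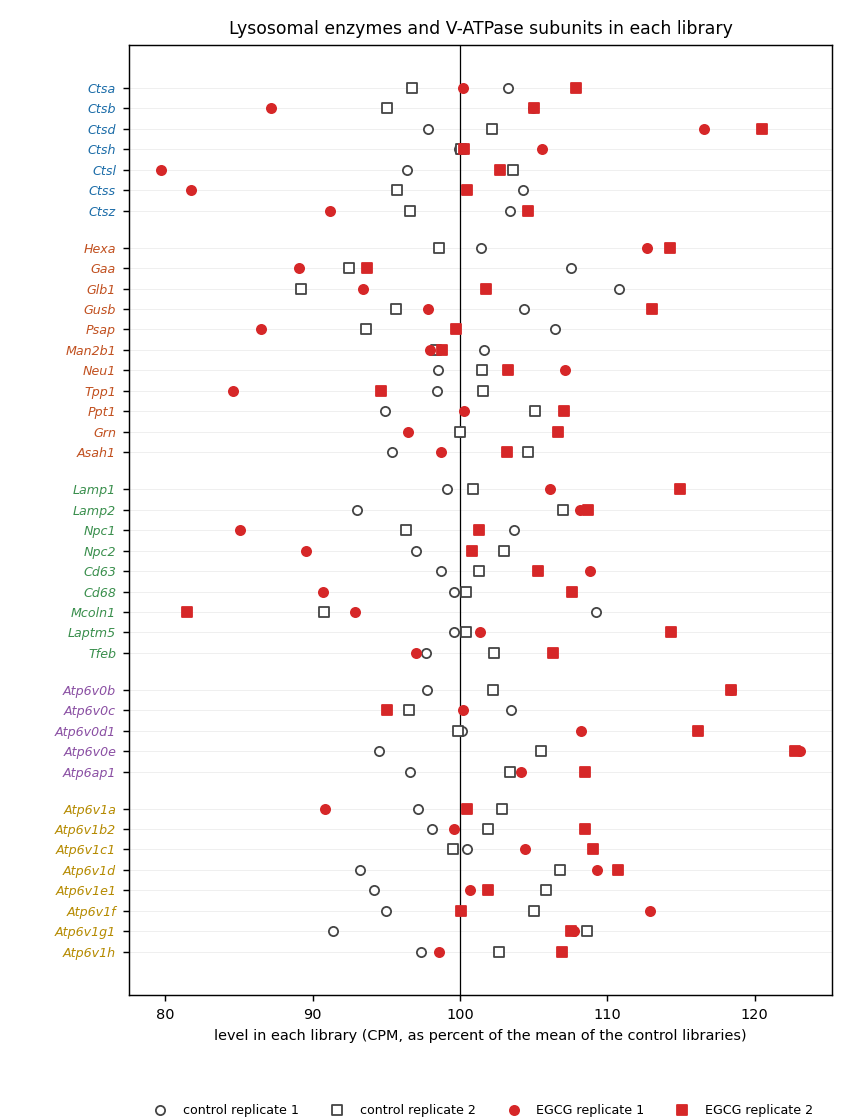
Level of each of the 40 genes in each library, as a percent of the mean of the control libraries (horizontal axis), with open symbols for control and filled symbols for EGCG, grouped from top to bottom as cathepsins, hydrolases and activators, membrane proteins with lipid carriers and regulators, V0 with its accessory subunit, and V1. Filled symbols lie to the right of both open symbols for 14 genes, among them Ctsd, Hexa, Atp6v0b, Atp6v0d1 and Atp6v0e.

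Levels of the lysosomal genes spanned a wide range in these cells. Together they took 1.64% and 1.55% of all counts with control medium and 1.52% and 1.66% with EGCG, so their summed share did not separate the groups. Per kilobase of exon, the scale on which genes can be compared, levels ran from 5.58 CPM for Glb1 to 1174 CPM for Psap. Psap, the precursor of the saposins that present lipids to hydrolases, stood at the 99.8th percentile of the tested genes, and Ctsd, an aspartic protease, at the 99.6th with 704 CPM. Ctsz (315 CPM), Laptm5 (280 CPM), Grn (243 CPM) and Lamp1 (170 CPM) followed among the leading genes of their classes on the same scale. At the other end, Glb1, Atp6v1h, Mcoln1 and Atp6v0c stood at the 56.6th, 57.9th, 58.6th and 68.4th percentiles. The leading genes of the pump were at 142 CPM for Atp6v0b, 122 CPM for Atp6v0d1, 130 CPM for Atp6v1g1 and 113 CPM for Atp6v1f per kilobase of exon, and Atp6v1h was near the low end of the set with 5.98. Exonic length counts every isoform, which lowers this value for genes with long alternative transcripts.

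**Figure D2:**
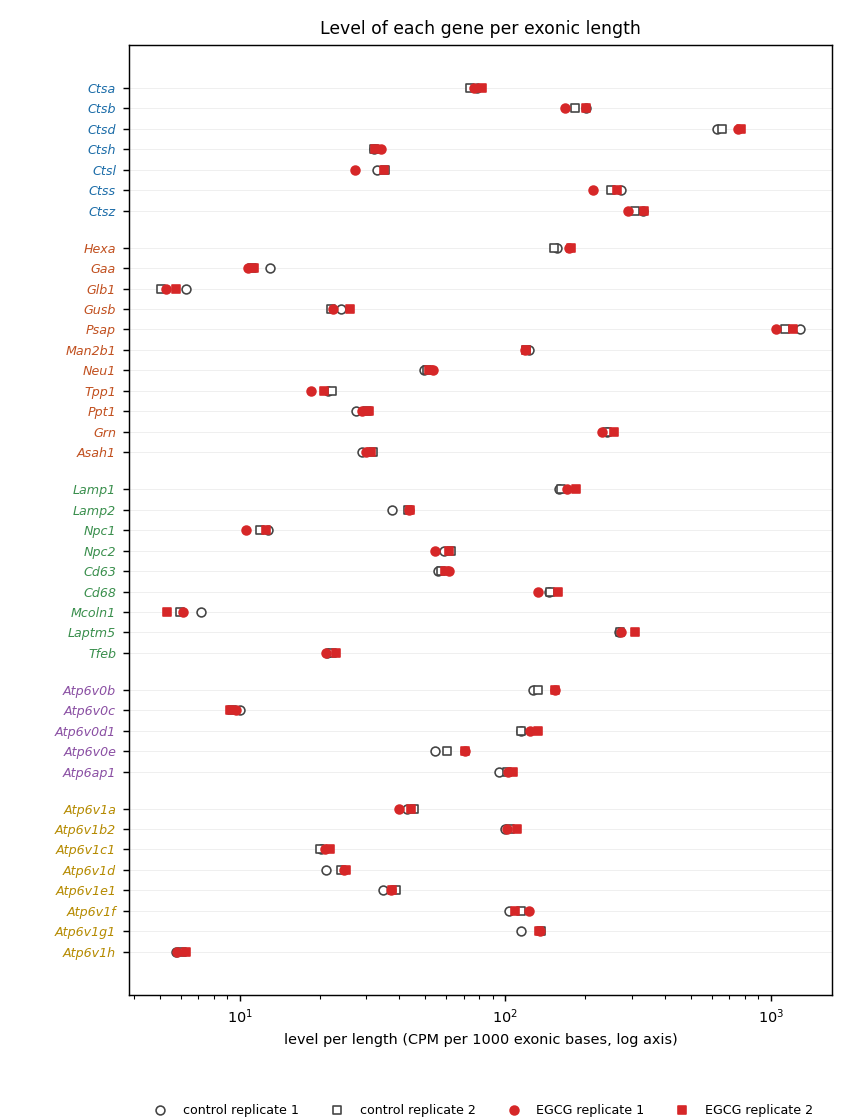
Level of each gene per kilobase of exon in each library (CPM per kilobase, log axis), with open symbols for control and filled symbols for EGCG. Levels span from 5.58 for Glb1 to 1174 for Psap, and the libraries of a gene lie close together compared with the distance between genes.

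The promoters were read for the E-box of TFEB targets, because many lysosomal genes are known as TFEB targets. Sequences are from RefSeq (GRCm38.p6), from 250 bases before to 50 bases after the start of a transcript, and 32 of the 40 genes had an entry. A gene was counted when any of its promoters held the motif. CACGTG, which reads the same on both strands, occurred in 11 of the 32 (34.4%). That compares with 8.09% of the 27025 genes with an entry and 11.7% of the 9938 tested genes that had one. The longer TCACGTGA, also the same on both strands and containing the shorter one, occurred in 6 of the 32 (18.8%). It occurred in 1.12% of all genes with an entry and in 2.18% of the tested genes that had one. A match is a description of the letters and not a site of binding. The windows around these boxes are given 5′ to 3′ along the gene for the 6 genes with the longer motif, for Atp6v0b, which lay among the highest with EGCG, and for Lamp1, which holds 4 copies, with each match within the window in capitals. Ctsd holds another CACGTG at -245, upstream of the window shown, which has the one at -98 (first base, counted from the transcript start). They lie at chr7:142387906-142387955 (minus strand) for Ctsd, chr17:26676369-26676418 (plus strand) for Atp6v0e, chr8:105566048-105566097 (minus strand) for Atp6v0d1, chr4:117887328-117887395 (minus strand) for Atp6v0b, chr2:164833731-164833797 (plus strand) for Ctsa, chr16:44139371-44139420 (minus strand) for Atp6v1a, chr8:3500418-3500493 (plus strand) for Mcoln1 and chr8:13159070-13159165 (plus strand) for Lamp1.
Ctsd: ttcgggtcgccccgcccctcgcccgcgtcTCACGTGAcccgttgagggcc
Atp6v0e: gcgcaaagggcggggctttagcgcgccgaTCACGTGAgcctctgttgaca
Atp6v0d1: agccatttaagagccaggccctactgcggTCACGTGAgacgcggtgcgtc
Atp6v0b: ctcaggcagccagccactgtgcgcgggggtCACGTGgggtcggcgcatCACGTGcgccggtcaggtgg
Ctsa: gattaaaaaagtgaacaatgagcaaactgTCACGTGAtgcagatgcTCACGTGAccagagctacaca
Atp6v1a: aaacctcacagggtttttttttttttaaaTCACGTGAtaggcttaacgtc
Mcoln1: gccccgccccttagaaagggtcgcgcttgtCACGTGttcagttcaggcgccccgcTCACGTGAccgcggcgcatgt
Lamp1: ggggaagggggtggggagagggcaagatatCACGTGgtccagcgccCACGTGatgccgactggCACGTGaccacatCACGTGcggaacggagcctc

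Members with the motif did not share a direction. Among the 11 genes with CACGTG, 6 had a log2 fold change above 0 (against 50.6% of all tested genes), with a median of 0.06. At an unadjusted p under 0.05, 4 were higher (against 5.22%). The range ran from -0.20 (Mcoln1) to 0.30 (Atp6v0e). These are the extremes of the whole set with every library kept and no correction for length. With that correction, Ctss at -0.19 and Tpp1 at -0.14, both without CACGTG, lay below Mcoln1 at -0.13. Among the 21 genes with a promoter entry and no CACGTG, 13 were above 0 and 1 (Hexa) was higher at an unadjusted p under 0.05, with a median of 0.02. A difference between genes with and without the motif was not tested. Among the 6 genes with TCACGTGA, 4 were above 0 (against 50.6% of all tested genes), with a median of 0.11. At an unadjusted p under 0.05, 3 of them were higher (against 5.22%). Both Ctsd and Mcoln1 hold TCACGTGA, and their log2 fold changes were 0.25 and -0.20. Tfeb itself, which encodes the factor, was at 120 and 126 CPM in the control libraries and at 119.7 and 131 CPM in the EGCG libraries. Its groups overlapped, and its log2 fold change was 0.02, in a 95% interval from -0.14 to 0.19 (adjusted p of 0.937 in edgeR). The Tfeb relatives Tfe3, Mitf and Tfec, outside the set, were named after their values were seen. Their log2 fold changes were -0.01, -0.18 and -0.25 (standard errors 0.07, 0.09 and 0.10, adjusted p of 0.972, 0.441 and 0.32 in edgeR). For each, both EGCG libraries lay below both control libraries, against 21.2% of all tested genes.

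Among the 4 genes of the V0 sector, the membrane part of the pump, and its accessory subunit Atp6ap1, 4 of 5 had both EGCG libraries above both control libraries, against 21.5% of all tested genes. Atp6v0e, a small membrane subunit, was at 202 and 225 CPM in the control libraries and at 263 and 262 CPM in the EGCG libraries. The EGCG libraries nearly coincided, and the control libraries lay apart from each other and below both. The log2 fold change was 0.30 (standard error 0.08, 95% interval from 0.13 to 0.46), or 22.9% higher, with an unadjusted p of 0.00183 and an adjusted p of 0.149 by edgeR's quasi-likelihood test. The gene lies on chromosome 17 of GRCm38 from 26663231 to 26699647 on the plus strand, and the RefSeq transcript start shown above is inside it. Without control replicate 2, Atp6v0e was called (log2 fold change 0.38, adjusted p of 0.0192 in edgeR), in a fit that called 354 genes in all against 22 with every library. Over the other alternatives its adjusted p was above the threshold and reached 0.652.

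Atp6v0b encodes one of the proteolipids that form the proton-carrying rotor ring. Its level was 261 and 272.5 CPM in the control libraries and 316 and 316 CPM in the EGCG libraries, which coincided and lay above both control libraries. That is 18.4% higher with EGCG (log2 fold change 0.24, standard error 0.07, 95% interval from 0.09 to 0.40, unadjusted p of 0.00485, adjusted p of 0.218). The gene is on chromosome 4 from 117884326 to 117887333 on the minus strand. Of its exonic bases, 243 overlap Gm12841, to which 0 reads were assigned. Atp6v0d1, the subunit that couples the V0 ring to the stalk of V1, was at 206 and 205 CPM with control medium and at 222 and 239 CPM with EGCG. Here the control libraries nearly coincided and both EGCG libraries lay above them, with a difference of 12.2% (log2 fold change 0.17, standard error 0.07, 95% interval from 0.0065 to 0.32, unadjusted p of 0.0424, adjusted p of 0.396). Atp6v0d1 is on chromosome 8 from 105524465 to 105566047 on the minus strand.

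The remaining genes of this group did not follow as one. Atp6ap1, an accessory subunit of the pump, had a log2 fold change of 0.09 (standard error 0.08), with EGCG libraries that lay just above the control libraries. Atp6v0c, the main proteolipid of the ring, was at 34.0 and 31.7 CPM in the control libraries and at 32.9 and 31.2 CPM in the EGCG libraries, which overlap. Of its 31-base words, 11.9% also occur in transcripts of other genes, chiefly a pseudogene of it, so its counts are uncertain. The large a subunits complete V0 and were not in the set. Of these, Tcirg1, the a3 subunit, was at 342 and 293 CPM in the control libraries and at 275.5 and 270 CPM in the EGCG libraries. It lay lower in both EGCG libraries (log2 fold change -0.22, standard error 0.08, unadjusted p of 0.0207, adjusted p of 0.322), opposite to Atp6v0b, Atp6v0d1 and Atp6v0e. Log2 fold changes were -0.09 for Atp6v0a1 (standard error 0.08) and 0.05 for Atp6v0a2 (standard error 0.09), both with overlapping groups, and Atp6v0a4 had 0 counts in the 4 libraries. Atp6ap2, another accessory subunit outside the set (named after its values were seen), was higher in both EGCG libraries, at a log2 fold change of 0.16 (standard error 0.08, unadjusted p of 0.0589, adjusted p of 0.431).

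In the V1 sector, which hydrolyzes ATP, 7 of 8 genes had a log2 fold change above 0 (87.5%, against 50.6% of all tested genes) and 0 had an unadjusted p under 0.05 (against 5.22% higher and 7.02% lower). The median was 0.07, but 0.02 without control replicate 1 and 0.04 without EGCG replicate 2, and the range ran from -0.06 for Atp6v1a, the catalytic A subunit, to 0.14 for Atp6v1d of the central rotor (standard error 0.08, unadjusted p of 0.115). When control replicate 1 was omitted, Atp6v1d was at 0.05, and when control replicate 2 was omitted, at 0.24. Both EGCG libraries lay above both control libraries for Atp6v1d and for Atp6v1c1, a subunit that holds the sectors together (log2 fold change 0.09), which is 25.0% of the sector against 21.5% of all tested genes. Atp6v1g1, a stalk subunit and the highest of the sector per length, was at 129.8 and 154 CPM with control medium and at 153 and 153 CPM with EGCG. Control replicate 1 stood apart from the other 3 libraries, and without it the log2 fold change of Atp6v1g1 was -0.0087 in place of 0.11. Atp6v1f, a rotor subunit, was at 110.2 and 122 against 131 and 116 CPM, with overlapping groups. Atp6v1b2, which forms the ATPase head together with Atp6v1a, Atp6v1e1 of the stalk and Atp6v1h, a regulatory subunit, had log2 fold changes of 0.06, 0.02 and 0.04, each smaller than its standard error. With a correction for exonic length, Atp6v1h was at 0.13 (standard error 0.09). Of the 31-base words of Atp6v1f, 18.4% are shared with other transcripts, and Atp6v1g1 shares a larger part, so that their counts are uncertain.

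Across the 13 V-ATPase genes, 11 had a log2 fold change above 0 (84.6%, against 50.6% of all tested genes), the median was 0.09, and 6 (46.2%, against 21.5%) had both EGCG libraries above both control libraries. The 6 other V-ATPase subunits that were tested, from the list of further lysosomal genes, were 3 above 0 and 3 below. Their median was -0.02. At an unadjusted p under 0.05, 1 of these 6 was lower (against 7.02% of all tested genes) and 0 were higher (against 5.22%). Among the 27 members outside the V-ATPase, 14 were above 0, the median was 0.01, and 8 had both EGCG libraries above both control libraries. A difference between these sets was not tested. Control replicate 1 was the lowest library for 9 of the 13 V-ATPase genes (69.2%, against 29.3% of all tested genes). Summed over the V0 genes and Atp6ap1, the level was 989.9 and 1043 CPM with control medium and 1144 and 1170 CPM with EGCG, and over V1 it was 1439 and 1545 against 1506 and 1578 CPM. The sums of the 5 listed V0 and accessory genes did not overlap between the groups, and those of V1 did. For single genes, both EGCG libraries lay above both control libraries in 21.5% of all tested genes. The a subunits, which complete V0, are outside these sums: Tcirg1 was at 342 and 293 against 275.5 and 270 CPM. Atp6v0a1 was at 241 and 208 against 219 and 204 CPM, and Atp6v0a2 at 61.3 and 55.3 against 59.4 and 61.8 CPM.

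**Figure D3:**
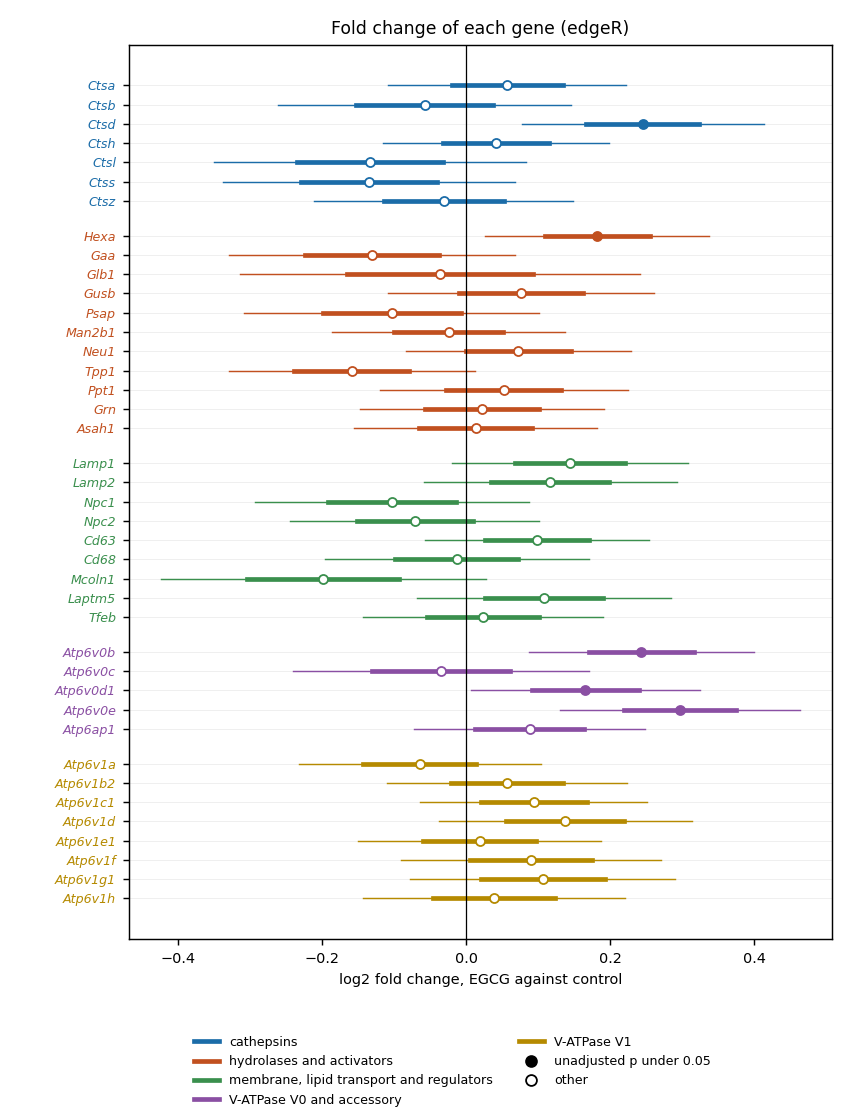
Log2 fold change of each gene, EGCG against control, from edgeR's fit, with the standard error as a thick bar and the 95% interval as a thin bar, and filled points for an unadjusted p under 0.05. The intervals of Ctsd, Hexa, Atp6v0b, Atp6v0d1 and Atp6v0e lie above 0 and those of the other genes include it.

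Of the 7 cathepsins, the proteases of the lysosome, 3 had a log2 fold change above 0 and 4 below, with a median of -0.03. With 1 library left out the sign of this median changed: it was 0.07 when EGCG replicate 1 was omitted and 0.02 when control replicate 1 was, but -0.13 when EGCG replicate 2 and -0.08 when control replicate 2 was omitted. Ctsd was at 1482 and 1547 CPM in the control libraries and at 1765 and 1825 CPM in the EGCG libraries. Both EGCG libraries lay above both control libraries, and the gap between the groups was wider than the spread within either. Its RNA level was 18.5% higher (log2 fold change 0.25, standard error 0.08, 95% interval from 0.08 to 0.41), with an unadjusted p of 0.00739 and an adjusted p of 0.230 by edgeR's quasi-likelihood test. The gene lies on chromosome 7 from 142375911 to 142388038 on the minus strand, and 808 of its 2351 exonic bases overlap the predicted gene Gm49369, to which 5 reads were assigned over the 4 libraries. A read that fits both genes cannot be assigned to 1 of them by its position.

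The other cathepsins were not called either. Ctss, a cysteine protease that trims the invariant chain of MHC class II, was at 371 and 341 CPM with control medium and at 291 and 358 CPM with EGCG. EGCG replicate 1 was the lowest library and EGCG replicate 2 lay between the control libraries, and the log2 fold change was -0.13 (standard error 0.09, 95% interval from -0.34 to 0.07). Ctsz, a carboxypeptidase, was at 475 and 444 against 419 and 480 CPM, with the EGCG libraries as the lowest and the highest (log2 fold change -0.03, standard error 0.08). Ctsb and Ctsl, broad endopeptidases, had log2 fold changes of -0.06 and -0.13 (standard errors 0.09 and 0.10), again with EGCG replicate 1 lowest. Without EGCG replicate 1 the values of Ctsb, Ctsl, Ctss and Ctsz were 0.07, 0.04, 0.0099 and 0.07. Ctsh, a cysteine aminopeptidase, had both EGCG libraries above both control libraries by a narrow margin, at 144.6 and 144.8 against 153 and 145.1 CPM. For Ctsh and Ctsa, a serine carboxypeptidase that also shields Neu1 and Glb1 from breakdown, the log2 fold changes were 0.04 and 0.06 with standard errors of 0.07 and 0.08. Counts of Ctsl, Ctsb and Ctsa are uncertain where their exons overlap those of Gm47123 (1742 bases), Fdft1 (774 bases) and Pltp (495 bases).

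Among the 11 hydrolases and activators, 6 had a log2 fold change above 0 and the median was 0.01, with values from -0.03 (EGCG replicate 2 omitted) to 0.05 (EGCG replicate 1 omitted) when 1 library was left out. Hexa, the α subunit of the β-hexosaminidase that degrades GM2 ganglioside, was at 313 and 304 CPM with control medium and at 347.5 and 352 CPM with EGCG. The libraries of each group lay close together and the groups did not overlap, with a difference of 13.5% (log2 fold change 0.18, standard error 0.07, 95% interval from 0.03 to 0.34, unadjusted p of 0.0249, adjusted p of 0.339). Hexa is on chromosome 9 from 59539540 to 59565109 on the plus strand, and 255 of its exonic bases overlap Tmem202. Neu1, the sialidase, also had both EGCG libraries above both control libraries, at a log2 fold change of 0.07 (standard error 0.07).

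Tpp1, a tripeptidyl peptidase, was the 1 member with both EGCG libraries below both control libraries, at 111 and 115 CPM with control medium and 95.7 and 107 CPM with EGCG. EGCG replicate 1 was the lowest library, and the log2 fold change was -0.16 (standard error 0.08, 95% interval from -0.33 to 0.01, unadjusted p of 0.0660, adjusted p of 0.450). Psap was at 3550 and 3122 against 2885 and 3327 CPM, and Grn, the precursor of the granulins, at 837 and 837 against 808 and 893 CPM. Psap had overlapping groups with EGCG replicate 1 lowest, whereas the EGCG libraries of Grn lay on either side of the control libraries, which coincided. Their log2 fold changes were -0.10 (standard error 0.10) and 0.02 (standard error 0.08), and that of Psap was -0.0011 when EGCG replicate 1 was omitted, -0.0028 when control replicate 1 was, and -0.21 when EGCG replicate 2 was.

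For the other 7 of this class, which degrade glycogen (Gaa), galactosides (Glb1), glucuronides (Gusb), mannosides (Man2b1), lipid-modified proteins (Ppt1) and ceramide (Asah1) or, as Neu1, remove sialic acid, log2 fold changes ran from -0.13 (Gaa) to 0.08 (Gusb). Glb1 was the least certain of the 40 genes, with 15.2 to 18.8 CPM and a standard error of 0.13. Reads of Ppt1 could be mixed with those of the highly expressed Cap1, with which it shares 129 exonic bases.

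Of the 9 membrane proteins, lipid carriers and regulators, 5 had a log2 fold change above 0, 4 had both EGCG libraries above both control libraries (44.4%, against 21.5% of all tested genes), and 0 had an unadjusted p under 0.05 (against 5.22% higher and 7.02% lower). Lamp1, a main glycoprotein of the lysosomal membrane, was at 428 and 436 CPM with control medium and at 458 and 496 CPM with EGCG. Both EGCG libraries lay above both control libraries, and the log2 fold change was 0.14 (standard error 0.08, 95% interval from -0.02 to 0.31, unadjusted p of 0.0786, adjusted p of 0.478). Laptm5, a transmembrane protein of hematopoietic lysosomes, was at 1017 and 1025 against 1035 and 1167 CPM, where EGCG replicate 2 made most of the difference (log2 fold change 0.11, standard error 0.08). Lamp2, the partner of Lamp1 in the membrane, and Cd63, a tetraspanin of late endosomes, were likewise higher in both EGCG libraries, at log2 fold changes of 0.12 and 0.10 (standard errors 0.08 and 0.07). Lamp2 was at 0.02 when control replicate 1 was omitted and at 0.22 when control replicate 2 was. Laptm5 was at 0.02 when EGCG replicate 2 was omitted. Of the 31-base words of Cd63, 15.9% also occur in transcripts of other genes, chiefly a pseudogene of it, so its counts are uncertain.

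Mcoln1 encodes the cation channel that releases calcium from the lysosome. Its log2 fold change was the lowest of the set with every library kept and no correction for length. The gene was at 54.2 and 45.0 CPM in the control libraries and at 46.1 and 40.4 CPM in the EGCG libraries. Control replicate 1 stood above the rest and control replicate 2 lay just below EGCG replicate 1, so the groups overlapped (log2 fold change -0.20, standard error 0.11, 95% interval from -0.42 to 0.03, unadjusted p of 0.0801, adjusted p of 0.480). The value was -0.05 when control replicate 1 was omitted, where Ctsl and Tpp1 were both lower at -0.18. It was -0.32 when control replicate 2 was omitted. With a correction for exonic length and every library, Mcoln1 was at -0.13, where Ctss and Tpp1 were lower at -0.19 and -0.14. Npc1 and Npc2, which pass cholesterol out of the lysosome, were at log2 fold changes of -0.10 and -0.07 (standard errors 0.09 and 0.08), and Cd68, a glycoprotein of phagocyte lysosomes, at -0.01 (standard error 0.09). EGCG replicate 1 was the lowest library for these 3 genes, and without it their values were 0.02, 0.01 and 0.11.

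The EGCG libraries thus differed from each other in many of these genes. EGCG replicate 1 was the lowest of the 4 libraries for 13 of the 27 members outside the V-ATPase (48.1%, against 25.4% of all tested genes), and EGCG replicate 2 was the highest for 13 of them (48.1%, against 26.6%). Of 12 markers of macrophages, phagocytes that the sort should mostly leave behind, EGCG replicate 1 was the lowest library for 9: Axl, for example, was at 55.4 and 45.0 CPM with control medium and at 29.5 and 46.9 CPM with EGCG, and Vcam1 at 56.6 and 52.1 against 43.3 and 49.4 CPM. Control replicate 1 was the highest library for 10 of the 12 (83.3%, against 29.1% of all tested genes) and EGCG replicate 2 for 1, where it was the highest for 13 of the 27 members. Of these markers, 11 had a log2 fold change below 0 and 6 of those an unadjusted p under 0.05 (against 7.02% of all tested genes), while Slc40a1 was higher. Their summed level was 1043 and 1084 CPM with control medium and 1021 and 1089 CPM with EGCG, with Slc40a1 making most of it. Of 8 monocyte markers, 7 were below 0 (3 with an unadjusted p under 0.05), with sums of 1529 and 1304 against 1160 and 1214 CPM. All 5 tested endothelial markers were lower at an unadjusted p under 0.05 (against 7.02% of all tested genes). The endothelial sums were 116 and 129 against 95.1 and 99.9 CPM, with Pecam1 making most of each. The 12 neutrophil markers, 8 of them above 0 and 1 with an unadjusted p under 0.05, summed to 59540 and 71030 against 79730 and 70420 CPM. S100a8 and S100a9 made most of each neutrophil sum. Eosinophil, basophil and mast cell markers summed to 1151 and 1026 against 997.5 and 859 CPM, with Prg2 making most of each sum. Of these 6 markers, 4 were below 0 and 2 above. At an unadjusted p under 0.05, 2 were lower (against 7.02% of all tested genes) and 1 was higher (against 5.22%). The 5 platelet markers were below 0 (1 with an unadjusted p under 0.05). Of the 5 markers of 4T1 epithelium, Krt8 and Krt19 had at most 3 counts in each library, Cdh1 was at 22.0 and 20.5 against 16.2 and 19.3 CPM, Epcam at 3.56 and 3.30 against 5.07 and 5.54 CPM, and the 3 that were tested were 2 above 0 and 1 below, with 1 in each direction at an unadjusted p under 0.05. B cell markers were above 0 for 5 of 6, 1 of them with an unadjusted p under 0.05 (against 5.22% of all tested genes). They summed to 356 and 375 against 404 and 369 CPM. T cell markers were above 0 for 4 of 6, with sums of 98.1 and 109 against 112 and 116 CPM. Dendritic, natural killer and erythroid markers were mixed in direction, and 1 dendritic marker was lower at an unadjusted p under 0.05. The part of these cell types in the values of the lysosomal genes was not tested.

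Exonic length moved with the result as well. Across the 40 genes, the Spearman correlation of log2 fold change with exonic length was -0.34, and across 14666 tested genes with a length it was -0.29 (a description across genes of the same 4 libraries, which are not independent). Lengths of the members ran from 1063 to 11317 bases. The 5 genes with an unadjusted p under 0.05 were among the 20 members shorter than 3760.5 bases, where the median log2 fold change was 0.08 and 14 genes were above 0. Over the 20 longer members the median was 0.02 and 11 were above 0. With a correction for length within each library, 682 of 14666 tested genes were higher and 805 lower at an unadjusted p under 0.05. In that fit, Ctsd, Atp6v0b and Atp6v0e kept an unadjusted p under 0.05 (0.0127, 0.0119 and 0.00187), Hexa and Atp6v0d1 did not (log2 fold changes 0.14 and 0.12, p of 0.0688 and 0.118, against 0.18 and 0.17 without the correction), and Lamp2 came under it (log2 fold change 0.20, p of 0.0261, adjusted p of 0.429). The median of the V0 genes and Atp6ap1 went from 0.17 to 0.12 and that of V1 from 0.07 to 0.06. Within V1, Atp6v1h went from 0.04 to 0.13 and Atp6v1a from -0.06 to -0.03. Atp6v1f went from 0.09 to 0.03 and Atp6v1g1 from 0.11 to 0.05.

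**Figure D4:**
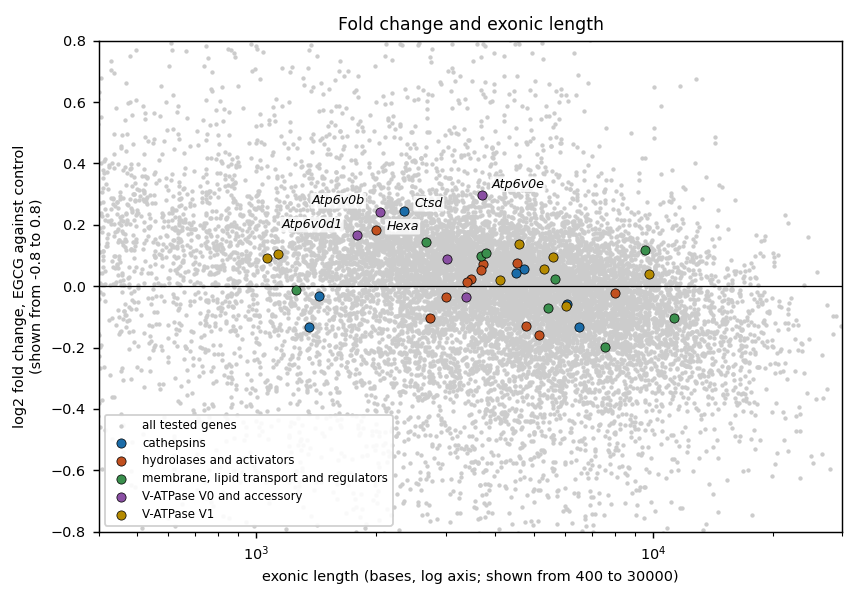
Log2 fold change against exonic length (log axis), with the tested genes in gray and the 40 lysosomal genes in color by class. The genes with an unadjusted p under 0.05 are named and lie left of 3760.5 bases, and the gray cloud slopes downward to the right.

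Other genes of the lysosome, from lists by protein function, served as a comparison. Of 91 listed, 84 were tested, 43 had a log2 fold change above 0 and 41 below, and the median was 0.0028. Here 0 had an adjusted p under 0.05 in edgeR, while at an unadjusted p under 0.05 there were 3 higher genes (3.57%, against 5.22% of all tested genes) and 6 lower ones (against 7.02%). The groups were separated for 14 genes in each direction (16.7%, against 21.5% higher and 21.2% lower of all tested genes). Abcb9, a peptide transporter of the lysosomal membrane, was at 6.13 and 7.28 CPM with control medium and at 9.54 and 9.69 CPM with EGCG (log2 fold change 0.52, standard error 0.16, adjusted p of 0.228). Hgsnat, which acetylates heparan sulfate during its breakdown, was at 64.8 and 73.0 against 84.2 and 89.3 CPM (log2 fold change 0.33, standard error 0.08, adjusted p of 0.133). The lowest were Gnptab and Acp2. Gnptab, whose enzyme adds the mannose 6-phosphate tag that sends hydrolases to the lysosome, was at 69.0 and 58.4 against 49.5 and 51.8 CPM (log2 fold change -0.33, standard error 0.09, adjusted p of 0.192). Acp2, an acid phosphatase, was at 66.8 and 59.1 against 49.5 and 53.9 CPM (log2 fold change -0.28, standard error 0.09, adjusted p of 0.230), and 652 of its exonic bases overlap Ddb2. In these 4 genes the groups did not overlap.

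How far the counts of genes depended on single libraries was computed by leaving each out in turn, with the lone library of a group assumed to vary like the others. Without control replicate 2, 8 members had an unadjusted p under 0.05, of which 6 were higher and 2 (Gaa and Mcoln1) lower, where 1039 of all 15325 tested genes were higher and 1161 lower. Without EGCG replicate 2 there were again 8, but 3 higher (Ctsd, Atp6v0b and Atp6v0e) and 5 lower (Ctsl, Ctss, Psap, Tpp1 and Npc1), where 597 of 15324 tested genes were higher and 994 lower. Without control replicate 1 there were 4 higher and 0 lower (395 and 600 of 15264 tested genes), and without EGCG replicate 1 there were 5 higher and 1 lower, Mcoln1 (647 and 925 of 15308 tested genes). Ctsd, Atp6v0b and Atp6v0e were higher at an unadjusted p under 0.05 in each of these fits, with log2 fold changes of 0.22 to 0.28, 0.22 to 0.28 and 0.22 to 0.38.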

How the data were processed

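The authors used STAR 2.6.0c for alignment to GRCm38 and featureCounts 1.6.2 with Ensembl release 91 for counting, and deposited whole-number counts without normalization. The counting did not use strand, so reads of overlapping genes cannot be told apart. The table held 0 columns of other samples. Groups were taken from the sample labels of the 4 libraries. Genes of the deposited table were filtered with filterByExpr (minimum count of 10), scaled by TMM and tested in edgeR 4.0.16 (R 4.3.3, quasi-likelihood in its legacy form, no covariate), with Benjamini-Hochberg adjustment over 14682 genes. A standard error is the fold change divided by the square root of F. CPM use the TMM-scaled totals. Replicates differed by more than sampling noise (chi-square per gene 6.32 between control and 6.14 between EGCG libraries). Exonic lengths, positions and shared 31-base words came from GENCODE M21 (GRCm38), and promoters from RefSeq. The length correction is a loess fit (span of 0.4) of log counts on log length, used as an offset. The fits were first tested on simulated data. Alternatives were other filters, scalings, DESeq2 1.42.0, robust and newer fits, length correction, a replicate block and left-out libraries. Genes were given in full where the unadjusted p was under 0.05, for the 3 highest and 3 lowest fold changes, for the 2 highest per length in each class, and for Tfeb. Other lysosomal genes were named as the 2 highest and 2 lowest fold changes at an unadjusted p under 0.05, and as the paralogs of Atp6v0a1. Atp6ap2 and the relatives of Tfeb were named after their values were seen. Members and lists were chosen with earlier results of these data known. Figures were drawn with matplotlib 3.10.9.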

Additional observations from a re-analysis of the deposited data

How the results depend on the processing

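Of 600 values (40 genes under 15 alternatives, of which 11 kept every library), 36 changed sign, and 20 members kept their direction throughout. The number of members with an adjusted p under 0.05 was 0 under each alternative that kept every library and 0 to 1 with a library left out. At an unadjusted p under 0.05 there were 4 to 7 members in the former and 4 to 8 in the latter (over these settings, 380 to 1039 of all tested genes were higher and 542 to 1406 lower), and 9 to 14 of the other lysosomal genes with a library left out. With the replicate block there were 7 members, the 5 higher ones with Tpp1 and Mcoln1 as lower ones, where 770 of all tested genes were higher and 1084 lower. Across genes, the difference between the control replicates had a correlation of 0.03 with that between the EGCG replicates. With 2 pairs, this cannot tell whether the replicate numbers paired the samples. The block called 0 members. Members above 0 ranged from 20 to 34 with a library left out and were 21 with library size only, which moved the median of all genes from 0.0031 to -0.03 and that of the members to 0.0055. The number of all genes called went from 22 to 0 without a filter, to 151 with library size only, 10 with a minimum count of 50, 11 with upper-quartile scaling, 50 with DESeq2, 63 with the robust fit and 7 with the length correction. Reversed values were, with library size only, Grn -0.013, Asah1 -0.0207, Tfeb -0.0111 and Atp6v1e1 -0.0151, and with the length correction, Man2b1 0.0448, Asah1 -0.0035 and Npc1 0.0069. With the replicate block and length correction together they were Man2b1 0.0448, Asah1 -0.0024 and Npc1 0.0028. The cause was not tested.

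With a library left out, log2 fold changes ran from -0.20 to 0.0731 for Ctsb, -0.33 to 0.041 for Ctsl, -0.29 to 0.0099 for Ctss, -0.13 to 0.0676 for Ctsz, -0.18 to 0.13 for Glb1, -0.0304 to 0.18 for Gusb, -0.0451 to 0.0047 for Man2b1, -0.0152 to 0.13 for Ppt1, -0.0505 to 0.095 for Grn, -0.0475 to 0.0843 for Asah1, -0.23 to 0.0211 for Npc1, -0.16 to 0.0145 for Npc2, -0.14 to 0.11 for Cd68, -0.0422 to 0.0902 for Tfeb, -0.0816 to 0.0208 for Atp6v0c, -0.14 to 0.0094 for Atp6v1a, -0.0050 to 0.12 for Atp6v1b2, -0.0581 to 0.11 for Atp6v1e1, -0.0087 to 0.24 for Atp6v1g1 and -0.0198 to 0.10 for Atp6v1h. Of members that kept their sign, those that moved by over 1.5 times ran from 0.0039 to 0.11 for Ctsa, 0.0067 to 0.08 for Ctsh, -0.23 to -0.01 for Gaa, -0.21 to -0.0011 for Psap, -0.24 to -0.08 for Tpp1, 0.09 to 0.20 for Lamp1, 0.02 to 0.22 for Lamp2, -0.32 to -0.05 for Mcoln1, 0.02 to 0.20 for Laptm5, 0.04 to 0.14 for Atp6ap1, 0.05 to 0.24 for Atp6v1d and 0.0026 to 0.18 for Atp6v1f. Each group had 2 libraries, and the standard errors of the members were 0.07 or more.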
